A study of Mus musculus with 8 samples.

Results

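The proteasome genes described here are the 49 rows of the count table whose symbol begins with Psm, a letter from a to g and a digit, out of 23141 rows that name a gene. They were divided by their known place in the particle into 7 core alpha subunits, 7 core beta subunits, 3 immunoproteasome subunits, 9 base subunits, 8 lid subunits, 7 assembly chaperones and 5 activators or inhibitors, and 2 rows belong to core subunits of restricted tissues (Psma8 of testis and Psmb11 of thymus) while Psmc3ip carries the name only. RNA had been taken from RAW264.7 cells, a mouse macrophage line transformed by a leukaemia virus, in 8 cultures: 1 untreated (0 min) and 7 given 100 ng/ml of LPS, the endotoxin of gram-negative bacteria, for 15, 30, 45, 60, 75, 90 or 120 min. The comparison asked which of these mRNAs change in the first hours of macrophage activation. Each time point has 1 library, so no time point has a replicate check, and every interval given for a single library or a ratio of libraries covers counting error only. The RNA is described as total RNA in the methods and as cytoplasmic in the sample labels, and with bulk RNA from a culture a lower level per cell and fewer cells that carry the transcript cannot be told apart.

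The 26S proteasome degrades proteins tagged with ubiquitin. Its 20S core is a barrel of alpha rings, which gate the entrance, and beta rings, whose subunits Psmb5, Psmb6 and Psmb7 carry the proteolytic sites. The 19S regulatory particle consists of a base, with the ATPases Psmc1 to Psmc6 that unfold the substrate, and a lid, which removes ubiquitin chains. Interferon induces the alternative catalytic subunits Psmb8, Psmb9 and Psmb10, which replace Psmb5, Psmb6 and Psmb7 in newly assembled particles and favour peptides for presentation by MHC class I. The activators Psme1 to Psme4 can take the place of the regulatory particle at the end of the barrel.

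The libraries held 100229997 to 159036125 counts, and the 49 proteasome rows together took 0.625% to 0.769% of them. The ribosomal RNA precursor Rn45s took 8.18% to 9.11% of the counts at 0, 30, 60 and 120 min and 13.0% to 20.5% at 15, 45, 75 and 90 min. Normalized counts are counts divided by median-of-ratios size factors, which ranged from 0.710 to 1.23. All 7 macrophage markers examined were present, and of 6 markers of other cell types Pecam1 was the highest at 0 min with 3.42 normalized counts. Tested were the 12164 genes whose normalized counts averaged 10 or more, among them 48 of the 49 proteasome rows; Psma8 had a single count, in the 45 min library. The exons of 14 members share bases with another gene in GENCODE: those of Psmd1, Psmg3 and Psmb5 with one on the same strand, and those of Psma4, Psma5, Psmb7, Psmb8, Psmb9, Psmc3, Psmd3, Psmd9, Psmd13, Psme1 and Psmc3ip with one on the opposite strand. Whether counting used the strand is not given in the sources used here, so the counts of these 14 may hold reads of the other gene.

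At 0 min the mRNAs of the core were the most abundant class by median level per annotated length. They differed among themselves, although each subunit enters the particle in equal number. Levels between genes were compared as rpkm, reads per kilobase of uniquely mappable sequence scaled to a library of 1e6 counts. Over the 14 constitutive core subunits the median was 221 rpkm, and the highest level, that of Psmb4 with 356 rpkm (352 to 359), was 5.40 times the lowest, that of Psma3 with 65.8 rpkm (65.0 to 66.7). In descending order Psmb4 was followed by Psma7 (343 rpkm), Psmb6 (274), Psma5 (273), Psmb3 (269), Psma4 (265), Psmb7 (231), Psmb5 (210.2), Psma1 (196), Psma6 (188), Psmb1 (128), Psmb2 (121), Psma2 (76.8) and Psma3. Of the 13 neighbouring pairs in this order, the counting intervals of 3 overlapped (Psmb6 and Psma5, Psma5 and Psmb3, Psmb3 and Psma4). The order depends on the annotated lengths, and the intervals do not cover an error in them. Psma2 and Psma3 have 2854 and 2789 unique 58-base words, and the next longest core gene is Psmb1 with 1701. Before division by length Psma3 had 24049 counts, Psma6 24250 and Psmb2 12743.

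The base subunits lay lower, with a median of 137 rpkm, from 62.2 rpkm (61.3 to 63.1) for the ATPase Psmc6 to 191 rpkm (189 to 193) for the ATPase Psmc3. Among the lid subunits, with a median of 84.0 rpkm, the deubiquitinase Psmd14 was the highest with 131 rpkm (129 to 132) and Psmd11 the lowest with 30.8 rpkm (30.2 to 31.4); the intervals of Psmd14 and Psmd8 and those of Psmd12 and Psmd7 overlapped. The immunoproteasome subunits were at 46.0 rpkm (45.1 to 46.9) for Psmb8, 38.6 rpkm (37.7 to 39.6) for Psmb10 and 10.4 rpkm (9.94 to 10.9) for Psmb9, each below the lowest core subunit. Activators and the inhibitor spanned 8.05-fold, from Psmf1, a protein that inhibits the core, with 12.0 rpkm (11.7 to 12.3) to Psme2 with 96.8 rpkm (95.1 to 98.5). The assembly chaperones, which guide subunits into place and are not part of the finished particle, had a median of 29.5 rpkm, with Psmg4 the highest at 61.2 rpkm (59.4 to 63.0) and Psmd9 the lowest at 15.1 rpkm (14.6 to 15.5). Psmb11, the catalytic subunit of the thymic proteasome, was at 0.240 rpkm (0.200 to 0.285), and Psmc3ip, which takes part in meiotic recombination and is no proteasome subunit, at 22.2 rpkm (21.5 to 22.9). Psma8 had a count of 0 at 0 min; 3 counts, taken as the limit of a count of 0, would be 0.0140 rpkm, and the exact Poisson upper bound was 0.0172 rpkm.

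**Figure D1:**
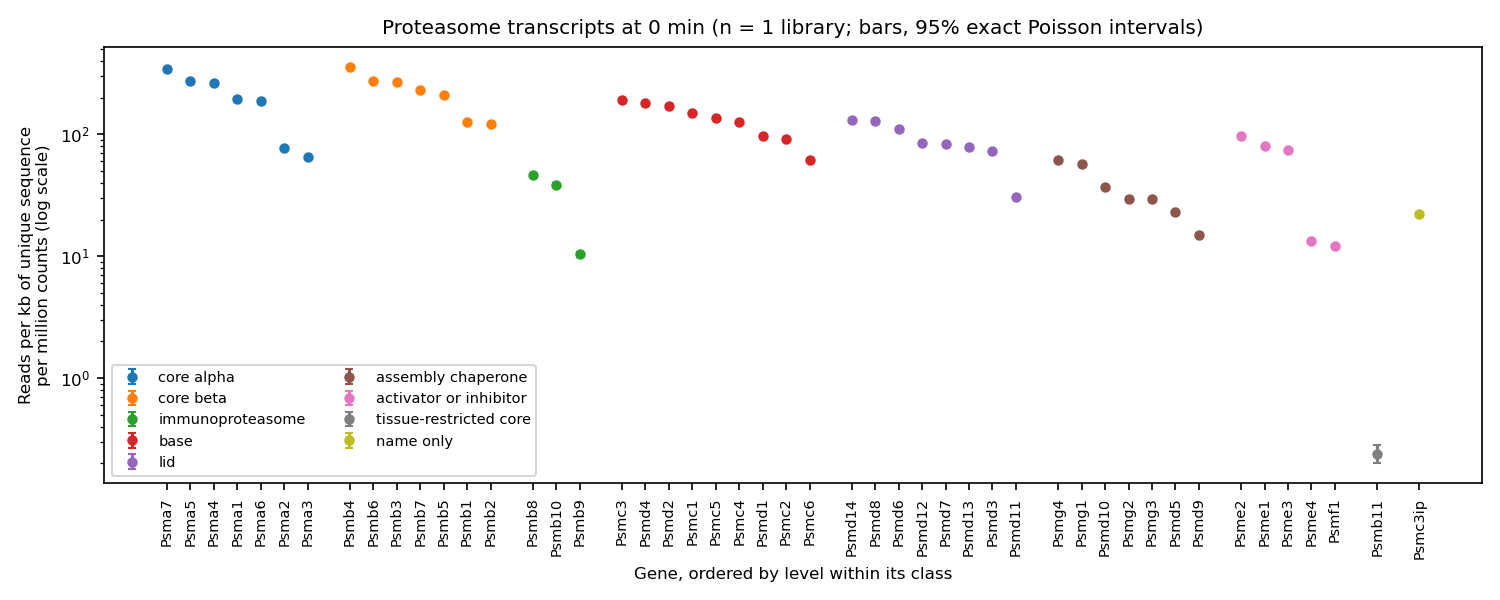
Level at 0 min of the 48 proteasome genes with a count in that library, in rpkm on a log axis and ordered within each class. Points are the single library and bars its exact Poisson 95% interval, mostly smaller than the point; the core subunits lie between 65.8 and 356 rpkm and the immunoproteasome subunits between 10.4 and 46.0 rpkm.

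Most proteasome mRNAs moved little. By the criteria of the study (a log2 ratio over 0.5 in size with an unadjusted p under 0.05 in an exact negative binomial test of one library against another), 0 of 48 were called higher and 0 lower at 60 min, where 4.23% of all genes tested were called higher and 3.0% lower. No member reached an unadjusted p below 0.05 at 60 min by this test or with the dispersion of edgeR (0 and 0). At 120 min 2 of 48 were called higher, Psmb11 and Psmd8, against 9.44% of all genes tested, and 0 lower, against 8.58%; with the dispersion of edgeR neither was called, and no member that was lower had an unadjusted p below 0.05 by either. By the fold limit alone, 3 of 48 were higher at 120 min (Psmb11, Psmd8 and Psmd11; 16.9% of all genes tested) and 1 was lower (Psmd5; 15.9%). These calls changed with the scale. With total counts, with or without Rn45s, Psmd5 was the sole call at 120 min, as lower. With TMM factors Psmb11 was called higher and Psmd5 lower, with the summed core subunits Psmb11 alone was called, and with the spike-in transcripts no member was. At all 7 later times, 44 of the 48 stayed within a log2 ratio of 0.5 of the 0 min library. The share of all genes tested that did so is not given here, so this count does not set the members apart.

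A second test asked for a steady change over the course: a linear trend of log expression on minutes (edgeR quasi-likelihood test, Benjamini-Hochberg adjustment over all genes tested). Its error was the scatter of the 8 libraries around the line, with 6 residual degrees of freedom. For each gene the estimate of this scatter was drawn toward the scatter fitted over all genes tested, so errors and p-values borrow from other genes. By this test 16 of 48 proteasome genes rose, where 23.7% of all genes tested did, and 5 fell, where 23.7% did. The median fitted change over 120 min was 0.14 on the log2 scale for the 48 members and -0.0036 for all genes tested. Rising and falling members were divided unevenly over the particle: 10 of 17 base and lid subunits and 3 of 14 constitutive core subunits were called rising, and none of either falling, while with total counts 2 of 17 and 0 of 14 were rising. The calls depended on the scale, and the median fitted change of all genes tested moved with it, to -0.27 with total counts, -0.22 without Rn45s, -0.12 with the spike-in transcripts and -0.13 with the summed core subunits. Called as rising and as falling were 2 and 8 members with total counts (9.89% and 36.7% of all genes tested). They were 7 and 13 without Rn45s (13.5% and 42.1%) and 3 and 2 with the spike-in transcripts (9.05% and 15.3%). With the summed core they were 9 and 9 (13.5% and 27.1%). With TMM factors they were 14 and 5, where 22.5% of all genes tested rose and a slightly larger share fell. Relative to the median of all genes tested, the median of the members was higher by 0.15 under each of these scales. A scale shifts all genes nearly alike, so this difference was bound to stay about the same and is no check of it. Without the 0 min library 25 members rose and 3 fell, and without the 120 min library 10 rose. The shares of all genes tested are not given here for these 2 fits, so their counts do not set the members apart. Psmd8 and Psmd11 were called rising, and Psmd5 and Psmc3ip falling, under all 6 scales and without each library in turn.

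**Figure D2:**
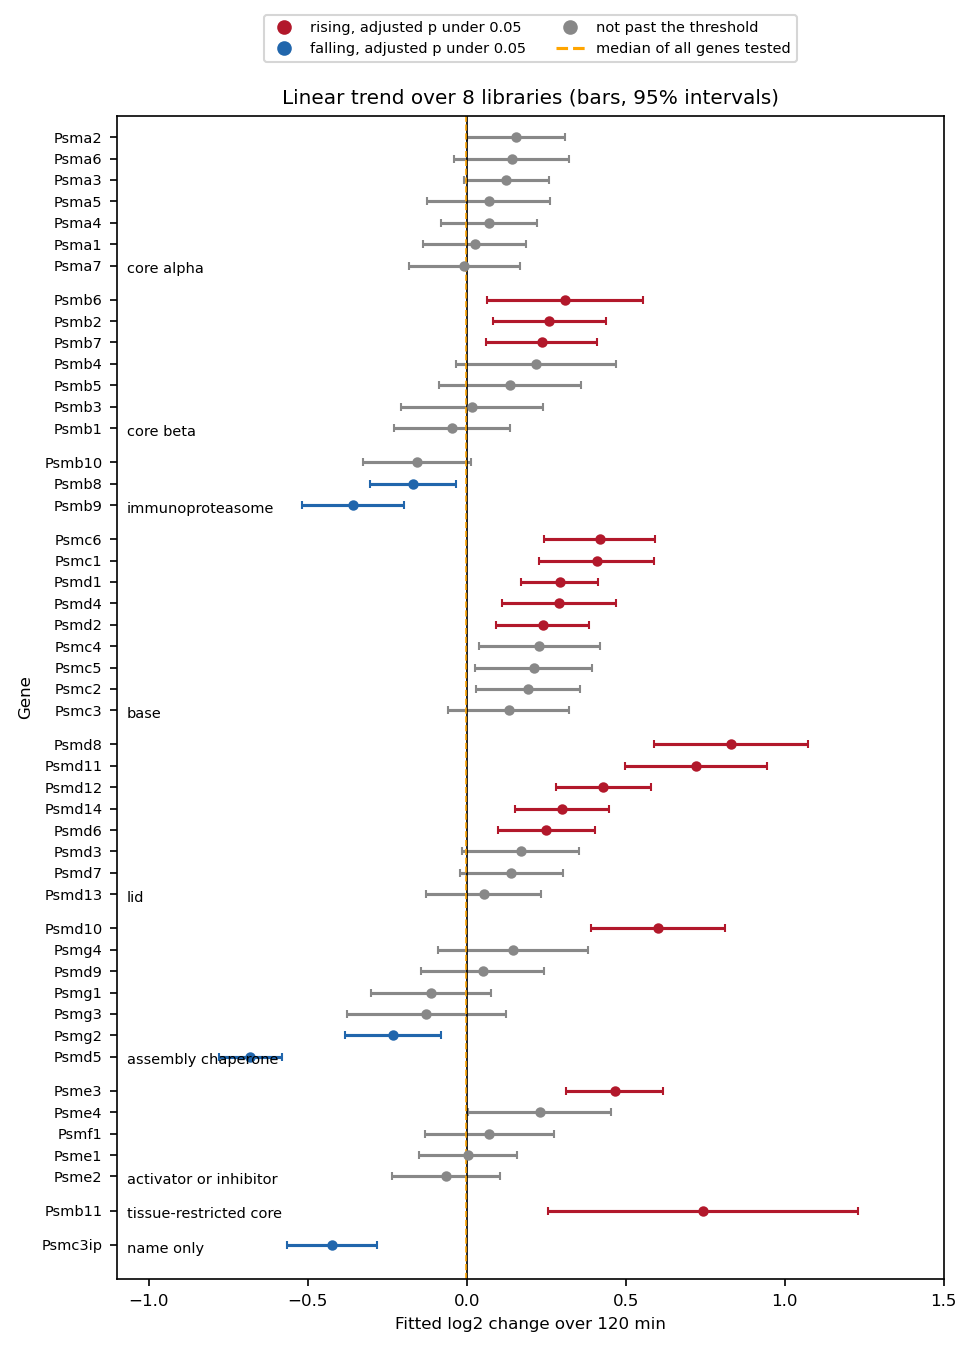
Fitted log2 change over 120 min of the 48 proteasome genes tested, by class, on the scale of the median-of-ratios size factors. The 95% intervals come from the scatter of 8 libraries around the line, drawn toward the scatter fitted over all genes tested. Red genes rose and blue genes fell past an adjusted p of 0.05; base and lid subunits all lie right of 0 on this scale, but with total counts 9 of the 17 lie left of it.

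None of the 7 alpha subunits of the core was called in either direction, and their fitted changes ran from -0.0081 (Psma7) to 0.15 (Psma2) on the log2 scale, all 7 being below 0 with total counts, where none was called, and without Rn45s, where Psma1 and Psma7 were called falling. Psma1 counted 25120.3 at 0, 22950.5 at 15, 22863 at 30, 22516 at 45, 23769 at 60, 23991 at 75, 24673 at 90 and 23904 at 120 min and Psma2 24563 at 0, 22869.6 at 15, 23796 at 30, 22971 at 45, 24989 at 60, 25039 at 75, 26154 at 90 and 25750.5 at 120 min. At 120 min their ratios to 0 min were the lowest and the highest of the class. The class lay between 0.952 (Psma1, 95% interval 0.936 to 0.967) and 1.05 (Psma2, 95% interval 1.03 to 1.07). Psma7, the most abundant alpha mRNA, counted 32914 at 0, 29873 at 15, 31583 at 30, 28873 at 45, 31700.1 at 60, 29996 at 75, 31226 at 90 and 31702 at 120 min after normalization; none of the later libraries was above the first. Psma3, the least abundant, counted 20573 at 0, 20055 at 15, 20446 at 30, 20024 at 45, 21315 at 60, 21868 at 75, 22167 at 90 and 21382 at 120 min, so that those from 15 to 45 min were below the first and those from 60 min on above it.

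Of the 7 beta subunits 3 rose on the scale of the median-of-ratios factors, and 1 with TMM factors or the summed core and 0 with the other scales did. Of all genes tested, 23.7% rose on the first scale, 22.5% with TMM factors and 13.5% with the summed core. Psmb6, the subunit with the caspase-like site (chromosome 11, 70525324 to 70527858 in GRCm38.p6), counted 22716 at 0, 19611 at 15, 20900.1 at 30, 19674 at 45, 22712 at 60, 22377 at 75, 24038 at 90 and 26305 at 120 min. The early libraries were low, and only those at 90 and 120 min exceeded the first; at 120 min the ratio was 1.16 (95% interval 1.14 to 1.18) and the fitted change 0.31 ± 0.11 (SE, adjusted p = 0.0416). Psmb7, with the trypsin-like site, counted 28583 at 0, 26431 at 15, 27547 at 30, 26319.7 at 45, 29549 at 60, 29137 at 75, 30718 at 90 and 32078 at 120 min, a fitted change of 0.24 ± 0.077 (SE, adjusted p = 0.0321) and a ratio of 1.12 (95% interval 1.11 to 1.14) at 120 min. Psmb2, a subunit without a catalytic site, reached 1.11 (95% interval 1.09 to 1.14) of its 0 min level, with a fitted change of 0.26 ± 0.078 (SE, adjusted p = 0.0236) and counts of 10901 at 0, 9675 at 15, 10065 at 30, 10309 at 45, 11149.6 at 60, 11057 at 75, 11723 at 90 and 12116 at 120 min. Each of these calls was lost when some library was left out: that of Psmb6 was lost without the 15, 30, 60, 75, 90 or 120 min library (fitted changes 0.21 to 0.32), that of Psmb7 without the 15, 30, 90 or 120 min library (fitted changes 0.20 to 0.23) and that of Psmb2 without the 15, 30, 90 or 120 min library (fitted changes 0.22 to 0.24). With TMM factors Psmb2 alone was called rising and relative to the summed core Psmb6 alone. That scale is the sum of the core genes themselves, so their changes on it are bound to scatter around 0. A call of a core gene on it compares that gene with the rest of the core only. Psmb5, with the chymotrypsin-like site, did not pass the test (0.14 ± 0.098 SE, adjusted p = 0.285) and counted 19836 at 0, 17864 at 15, 18545 at 30, 16667 at 45, 19107 at 60, 18659.8 at 75, 19915 at 90 and 20749 at 120 min. The most abundant subunit, Psmb4, counted 44862 at 0, 37481 at 15, 40266 at 30, 38314 at 45, 44950.2 at 60, 42636 at 75, 44947 at 90 and 47971 at 120 min and was not called. Psmb1 had the lowest 120 min ratio of the beta class, 0.903 (95% interval 0.888 to 0.918), with counts of 24309 at 0, 21542 at 15, 21890.1 at 30, 20624 at 45, 22454 at 60, 22086 at 75, 22625 at 90 and 21956 at 120 min, and Psmb3 stood at 0.960. Psmb1 was called falling with the summed core (-0.17) and without Rn45s (-0.26), and under no other scale.

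Early in the course the core subunits lay below the untreated library. At 15, 30 and 45 min all 14 did on the scale of the median-of-ratios factors, with TMM factors and with total counts, with or without Rn45s. With the spike-in transcripts 12, 9 and 13 did. Whether they returned later depended on the scale. With total counts, with or without Rn45s, all 14 were also below at 60, 75 and 90 min, and 13 at 120 min. With the spike-in transcripts all 14 were below at 60 min, 5 at 75, 3 at 90 and 11 at 120 min. All 14 constitutive core subunits had their lowest value on the median-of-ratios scale at 15 min (4 genes) or 45 min (10 genes), and over the 48 members 44 were below the 0 min library at 15 min, against 44.7% of all genes tested. The median log2 ratio of the core subunits to the 0 min library was -0.15 after 15 min of LPS, -0.11 after 30, -0.18 after 45 and -0.014 after 60, and reached 0.054 after 120 min. The 15 and 45 min libraries are among the 4 with the higher share of Rn45s, and the 30 min library is not. The other libraries with the higher share, at 75 and 90 min, had core medians of -0.040 and 0.0065. The part of Rn45s in the dip was not tested. The core median at 45 min was -0.36 with total counts, -0.23 without Rn45s and -0.12 with the spike-in transcripts. With total counts the core median was lowest at 75 min (-0.37), and with the spike-in transcripts at 60 min (-0.31). On the median-of-ratios scale the median over all genes tested was 0.023 at 15 min, 0.011 at 30 min and -0.0025 at 45 min.

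**Figure D3:**
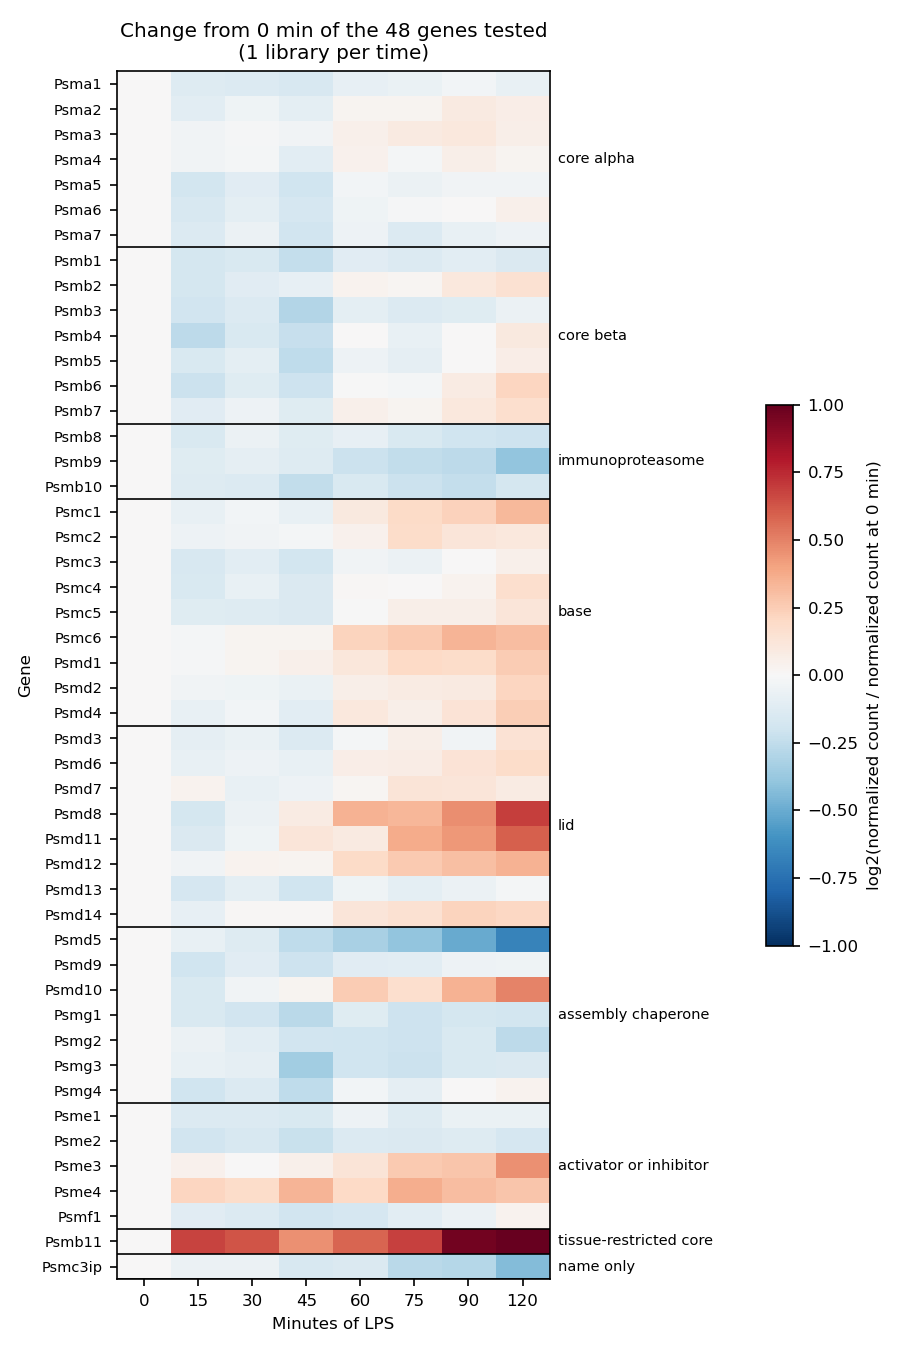
Log2 ratio of the normalized count to the 0 min library for the 48 proteasome genes tested, in rows by class, at the 8 times in columns, with 1 library per time. On this scale the core rows are blue at 15 and 45 min, the immunoproteasome rows stay blue to 120 min, and the reddest rows at 120 min are those of Psmb11 (ratio 2.03), Psmd8 (1.62) and Psmd11 (1.51).

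In the lid, 5 of 8 subunits rose (23.7% of all genes tested) and none fell. With total counts 2 of 8 rose (9.89% of all genes tested) and with the spike-in transcripts 2 of 8 (9.05%). Without Rn45s or with the summed core 3 of 8 rose (13.5% of all genes tested with each). The 2 with the largest changes, Psmd8 and Psmd11, rose under all 6 scales. Psmd8, a scaffold subunit of the lid (chromosome 7, 29174187 to 29180673), counted 20818 at 0, 18449 at 15, 20023 at 30, 22082 at 45, 26462 at 60, 26259.8 at 75, 28693 at 90 and 33689.7 at 120 min. After a low value at 15 min it exceeded the first library from 45 min on and was highest at 120 min. The 120 min ratio was 1.62 (95% interval 1.59 to 1.64) and the fitted change 0.83 ± 0.11 (SE, adjusted p = 4.36e-04); over the 6 scales the fitted change ran from 0.57 to 0.83 and the 120 min log2 ratio from 0.49 to 0.69. Psmd11, another scaffold subunit (chromosome 11, 80428615 to 80473248), counted 9629 at 0, 8729 at 15, 9368 at 30, 10464 at 45, 10234 at 60, 12447 at 75, 12989 at 90 and 14535 at 120 min, with the 3 libraries from 75 min on above all earlier ones. Its ratio was 1.51 (95% interval 1.47 to 1.55) at 120 min and its fitted change 0.72 ± 0.098 (SE, adjusted p = 5.85e-04), with 0.46 to 0.72 over the scales. Psmd12 (chromosome 11, 107479528 to 107498036) counted 17558 at 0, 17133 at 15, 18007 at 30, 17864 at 45, 20065 at 60, 20996 at 75, 21636 at 90 and 22329 at 120 min, a fitted rise of 0.43 ± 0.066 (SE, adjusted p = 9.90e-04) and a 120 min ratio of 1.27 (95% interval 1.25 to 1.29). With total counts and with the spike-in transcripts it was not called. Within the 0, 30, 60 and 120 min libraries alone and within the 15, 45, 75 and 90 min libraries alone, Psmd8, Psmd11 and Psmd12 were called rising as well; these are the libraries of lower and of higher Rn45s share.

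Psmd14, the deubiquitinase that cuts chains off the substrate, counted 21738 at 0, 20581 at 15, 21894 at 30, 21879 at 45, 23662 at 60, 24219 at 75, 25359 at 90 and 25071 at 120 min. It rose by 0.30 ± 0.065 (SE, adjusted p = 0.00549) in the edgeR fit and reached a ratio of 1.15 (95% interval 1.13 to 1.17). Psmd6, another scaffold of the lid, counted 16536 at 0, 15670.2 at 15, 15962 at 30, 15678 at 45, 17358 at 60, 17378 at 75, 18156 at 90 and 18734 at 120 min and rose by 0.25 ± 0.067 (SE, adjusted p = 0.0144), to a ratio of 1.13 (95% interval 1.11 to 1.15). Both were lower at 15 min than at 0 min and highest at 90 or 120 min, and neither was called with total counts, without Rn45s, with the spike-in transcripts or with the summed core. The call of Psmd6 was lost without the 120 min library (fitted change 0.23), and with total counts its fitted change was -0.013. Psmd3, Psmd7 and Psmd13 did not pass the test, with fitted changes of 0.17, 0.14 and 0.053; Psmd13 had the lowest 120 min ratio of the lid, 0.986 (95% interval 0.967 to 1.01), with counts of 17215 at 0, 15346 at 15, 16075 at 30, 15034 at 45, 16714 at 60, 16087 at 75, 16562 at 90 and 16979 at 120 min.

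**Figure D4:**
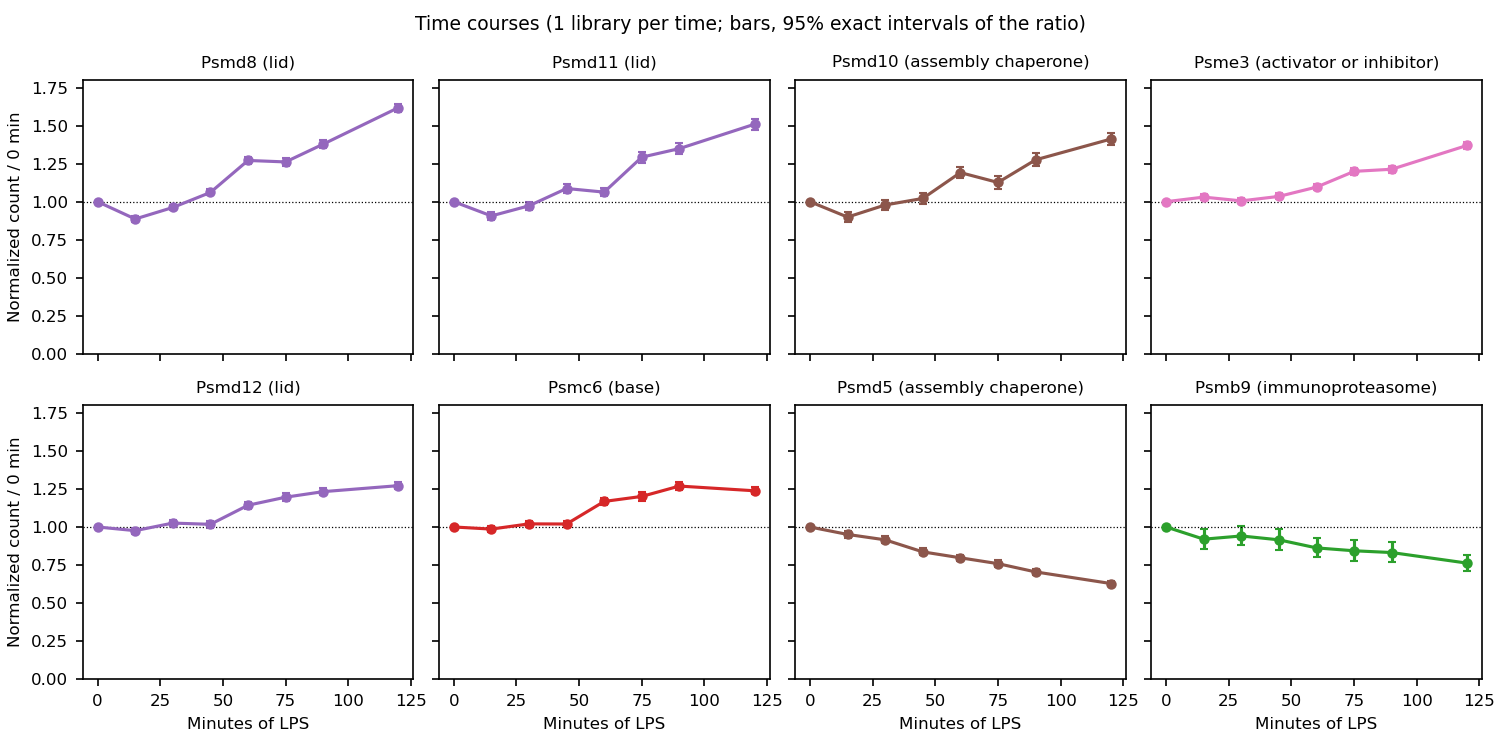
Ratio of the normalized count to the 0 min library over time for 8 proteasome genes, 1 library per time, with exact 95% counting intervals. Psmd8 and Psmd11 climb to 1.62 and 1.51 at 120 min, while Psmd5 declines at every step to 0.628; these 3 directions hold under the 6 scales tried.

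With total counts 0 of 9 base subunits were called rising (9.89% of all genes tested) and with the spike-in transcripts 0 (9.05%). Without Rn45s 2 were called rising (13.5% of all genes tested) and with the summed core 3 (13.5%). On the median-of-ratios scale the median fitted change was 0.24 for the base and 0.27 for the lid, which includes Psmd8 and Psmd11. Without these 2, the summed counts of the lid over those of the core at 120 min were 1.09 relative to 0 min. For the base that value was 1.12. Of the base, 5 of 9 subunits were called rising on the median-of-ratios scale (23.7% of all genes tested). The 5 were Psmc6 (0.42 ± 0.076 SE, adjusted p = 0.00237) and Psmc1 (0.41 ± 0.079 SE, adjusted p = 0.00320) of the ATPase ring, the scaffolds Psmd1 (0.29 ± 0.053 SE, adjusted p = 0.00236) and Psmd2 (0.24 ± 0.064 SE, adjusted p = 0.0149), and the ubiquitin receptor Psmd4 (0.29 ± 0.079 SE, adjusted p = 0.0155), all by edgeR. Psmc6 (chromosome 14, 45329823 to 45349074) counted 15170.2 at 0, 14959 at 15, 15480.2 at 30, 15466 at 45, 17717 at 60, 18218 at 75, 19251 at 90 and 18779.8 at 120 min: the first 4 libraries were nearly level and the last 4 all higher. Psmc1 counted 25805 at 0, 24446 at 15, 25316 at 30, 24565 at 45, 27616 at 60, 29506 at 75, 30294 at 90 and 32315 at 120 min and had the highest 120 min ratio of the base, 1.25 (95% interval 1.23 to 1.27). The scaffold Psmd1 counted 33081 at 0, 32733 at 15, 33674 at 30, 34250.4 at 45, 35749.7 at 60, 38032 at 75, 37472 at 90 and 39443 at 120 min, and Psmd2 58695 at 0, 57283 at 15, 56935 at 30, 56143 at 45, 61225 at 60, 62106 at 75, 62441 at 90 and 68152 at 120 min. In both every library from 60 min on was above the first, with 120 min ratios of 1.19 (95% interval 1.18 to 1.21) for Psmd1 and 1.16 (95% interval 1.15 to 1.17) for Psmd2. Psmd4 counted 25908 at 0, 24588 at 15, 25382 at 30, 24086 at 45, 27798 at 60, 26953 at 75, 28502 at 90 and 30684 at 120 min, with a ratio of 1.18 (95% interval 1.17 to 1.20). Without the 120 min library the calls of Psmd2 and Psmd4 were lost, with fitted changes of 0.17 and 0.23, and with total counts the fitted change of Psmd2 was -0.022. The other ATPases Psmc2, Psmc3, Psmc4 and Psmc5 had fitted changes of 0.19, 0.13, 0.23 and 0.21 and adjusted p-values of 0.0525, 0.225, 0.0513 and 0.0593 (edgeR); the lowest 120 min ratio was that of Psmc3, 1.04 (95% interval 1.02 to 1.05), which counted 33806 at 0, 30183 at 15, 31393 at 30, 29812 at 45, 33009.9 at 60, 32374 at 75, 33852 at 90 and 35008 at 120 min.

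Because the scale of a library cancels in a ratio of genes within it, the regulatory particle was also set against the core within each library. The summed counts of the 17 base and lid genes over those of the 14 core genes were 1.05 at 0, 1.1 at 15, 1.09 at 30, 1.14 at 45, 1.12 at 60, 1.18 at 75, 1.16 at 90 and 1.20 at 120 min. The first library had the lowest value and the last the highest, with the 15, 45 and 75 min libraries above the library that followed each; these are 3 of the 4 libraries with the higher Rn45s share, whose part in this was not tested. Relative to 0 min the ratio at 120 min was 1.15 for base and lid, 1.12 for the base, 1.20 for the lid and 1.09 for the lid without Psmd8 and Psmd11. These sums weight each gene by its counts and are a description without a test.

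To show the sequence before the start of the lid and base genes with the clearest rise, the bases upstream of the annotated transcripts are given 5′ to 3′ on the strand of the gene, from RefSeq (GRCm38.p6), and end before the outermost exon in RefSeq or GENCODE. Psmd8 and Psmd11 had the largest rises among the genes of the particle and hold no match to any of the 3 motifs searched in the windows around their starts. Psmd12 and Psmc6 hold a match to the antioxidant response element type TGACNNNGC, printed in capitals as its reverse complement:

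Psmd8, chr7:29180702-29180821 (- strand): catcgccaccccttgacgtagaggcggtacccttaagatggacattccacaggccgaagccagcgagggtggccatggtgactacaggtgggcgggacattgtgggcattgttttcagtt

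Psmd11, chr11:80428495-80428614 (+ strand): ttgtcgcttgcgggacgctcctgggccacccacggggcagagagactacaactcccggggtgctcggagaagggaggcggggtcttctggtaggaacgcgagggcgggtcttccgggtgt

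Psmd12, chr11:107479278-107479483 (+ strand): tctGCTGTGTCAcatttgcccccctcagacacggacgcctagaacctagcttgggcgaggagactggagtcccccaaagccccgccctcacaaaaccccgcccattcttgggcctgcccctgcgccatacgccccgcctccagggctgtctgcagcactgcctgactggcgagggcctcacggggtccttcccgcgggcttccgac

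Psmc6, chr14:45329574-45329787 (+ strand): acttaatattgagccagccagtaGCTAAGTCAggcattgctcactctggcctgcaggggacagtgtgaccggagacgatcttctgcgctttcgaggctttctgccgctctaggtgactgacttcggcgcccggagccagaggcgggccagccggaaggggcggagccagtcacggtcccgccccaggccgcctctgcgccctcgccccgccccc

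The windows span 250 bases before to 50 after each start, and 41 of the 49 members had one. The element type bound by Nfe2l1 and Nfe2l2, TGACNNNGC, was found on either strand in 6 of the 41 (Psmb5, Psmb6, Psmc6, Psmd12, Psmd9 and Psme4), while 13.99% of 27025 genes held it. The interferon-stimulated response element core GAAANNGAA was found in 7 of 41, against 9.76% of all genes, and the NF-kB type GGNNTTTCC in 3 of 41, against 6.62%. None of the 3 immunoproteasome genes held any of these motifs in its window, and no match of one motif in a member shared bases with a match of another. A match is a description of these letters and not a binding site.

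The immunoproteasome subunits were lower late in the course, on their own and against the subunits they replace. Psmb9 (chromosome 17, 34182030 to 34187330) fell by 0.36 ± 0.070 (SE, adjusted p = 0.00347) on the log2 scale and counted 1512 at 0, 1391 at 15, 1423 at 30, 1385 at 45, 1304 at 60, 1276 at 75, 1258 at 90 and 1153 at 120 min. The first library was the highest and the last the lowest, with a ratio of 0.763 (95% interval 0.711 to 0.818) at 120 min. Psmb8 (chromosome 17, 34198195 to 34201454) fell by 0.17 ± 0.059 (SE, adjusted p = 0.0429) and counted 8095 at 0, 7303 at 15, 7753 at 30, 7441 at 45, 7650.3 at 60, 7268 at 75, 7065 at 90 and 7010.4 at 120 min; its ratio was 0.866 (95% interval 0.841 to 0.892) at 120 min, and its call was lost without the 0, 30, 75, 90 or 120 min library (fitted changes -0.13 to -0.18). Psmb10 (chromosome 8, 105935728 to 105938392) did not pass the test (-0.16 ± 0.075 SE, adjusted p = 0.116) and counted 5431 at 0, 4961 at 15, 4947 at 30, 4571 at 45, 4873 at 60, 4689 at 75, 4606 at 90 and 4804 at 120 min, with a ratio of 0.885 (95% interval 0.854 to 0.917). With the spike-in transcripts as the scale none of the 3 was called, with total counts or the summed core all 3 were called falling, and no scale turned the direction of any.

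Exchange of catalytic subunits within particles was not measured. The ratio of each immunoproteasome mRNA to its constitutive counterpart was followed within a library, per length, which no scaling of the libraries can change. For Psmb10 over Psmb7 it was 0.167 at 0, 0.165 at 15, 0.158 at 30, 0.153 at 45, 0.145 at 60, 0.142 at 75, 0.132 at 90 and 0.132 at 120 min. Each library had a lower value than the one before, from 0.167 (0.163 to 0.172) at 0 min to 0.132 (0.128 to 0.135) at 120 min. Over the 8 libraries the log2 ratio declined with time (Spearman's rho -1, exact p = 4.96e-05, adjusted over the 3 pairs 1.49e-04; Pearson's r -0.977, exact p = 2.48e-05, adjusted 7.44e-05, two-sided permutation test over all 40320 orderings), and these are the smallest p-values that the orderings can give for each. For Psmb9 over Psmb6 the values were 0.0381 at 0, 0.0406 at 15, 0.0390 at 30, 0.0403 at 45, 0.0329 at 60, 0.0326 at 75, 0.0299 at 90 and 0.0251 at 120 min: the first 4 libraries were all above the last 4 (Spearman's rho -0.833, exact p = 0.0154, adjusted over the 3 pairs 0.0231; Pearson's r -0.916, exact p = 0.00154, adjusted 0.00231). For Psmb8 over Psmb5 they were 0.219 at 0, 0.219 at 15, 0.224 at 30, 0.239 at 45, 0.215 at 60, 0.209 at 75, 0.190 at 90 and 0.181 at 120 min, highest at 45 min and lowest at 120 min (Spearman's rho -0.762, exact p = 0.0368, adjusted over the 3 pairs 0.0368; Pearson's r -0.791, exact p = 0.0196, adjusted 0.0196). Relative to 0 min the 120 min ratios stood at 0.788 for Psmb10 over Psmb7, 0.658 for Psmb9 over Psmb6 and 0.828 for Psmb8 over Psmb5.

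When the 0 and 120 min libraries, the farthest from the median time, were left out, r was -0.993 for Psmb10 over Psmb7 (exact permutation p = 0.00278), -0.928 for Psmb9 over Psmb6 (exact permutation p = 0.0139) and -0.718 for Psmb8 over Psmb5 (exact permutation p = 0.108). For the last pair r and rho (-0.771 without them) kept about their size over the 6 libraries left, and the p no longer passed 0.05. Without the 60, 75, 90 or 120 min library rho was -0.643 for Psmb8 over Psmb5 and -0.750 for Psmb9 over Psmb6, and neither passed an adjusted p of 0.05. Within the 4 libraries of lower and the 4 of higher Rn45s share, rho was -1 in both for Psmb10 over Psmb7, -0.800 and -1 for Psmb9 over Psmb6 and -0.800 in both for Psmb8 over Psmb5, where 4 libraries allow no p below 0.0833. The fall of a ratio can come from either gene: over the course Psmb6 and Psmb7 rose by the trend test and Psmb8 and Psmb9 fell, on the scale of the median-of-ratios factors. In the GENCODE annotation the exons of Psmb8, Psmb9, Psmb5 and Psmb7 share bases with another gene, Psmb9 with Tap1 on the opposite strand, and the RefSeq spans of Psmb9 and Tap1 do not overlap.

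**Figure D5:**
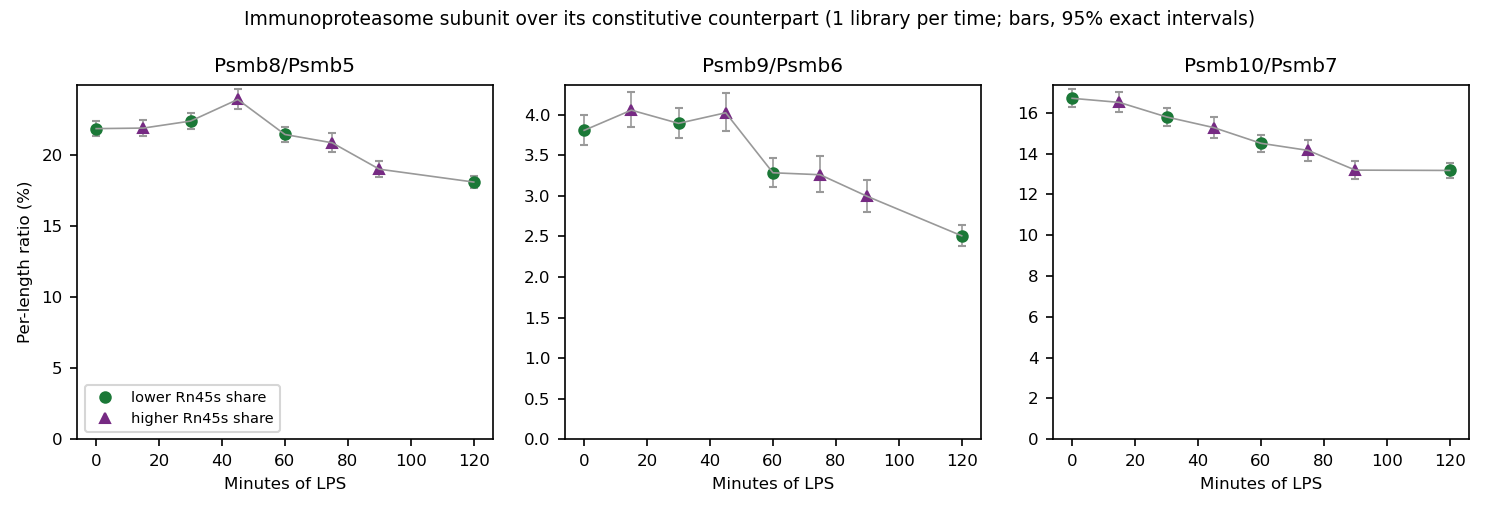
Per-length ratio, in percent, of each immunoproteasome mRNA to its constitutive counterpart within a library against minutes of LPS, with exact 95% counting intervals; circles are libraries with the lower and triangles libraries with the higher Rn45s share. All 3 ratios are lower at 120 min than at 0 min, and Psmb10 over Psmb7 declines at every step.

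Among the activators, Psme3 alone was called on the median-of-ratios and TMM scales, while Psme2 was called falling with total counts (-0.33, the one activator called there), without Rn45s (-0.28) and with the summed core (-0.18), and Psme1 without Rn45s (-0.21). Psme3, which forms the nuclear PA28 gamma activator (chromosome 11, 101316213 to 101323537), rose by 0.46 ± 0.067 (SE, adjusted p = 7.56e-04) in the edgeR fit and counted 21843 at 0, 22501 at 15, 21959 at 30, 22603 at 45, 23938 at 60, 26198 at 75, 26502 at 90 and 29916 at 120 min. The libraries from 60 min on were all above the earlier ones, and the 120 min ratio was 1.37 (95% interval 1.35 to 1.39); the fitted change stayed above 0 under the 6 scales (0.20 to 0.46), but with total counts and with the spike-in transcripts it was not called. Psme1 and Psme2 form the interferon-inducible PA28 ring and were not called on the median-of-ratios scale (0.0049 ± 0.068 SE, adjusted p = 0.959, and -0.065 ± 0.074 SE, adjusted p = 0.508, by edgeR). Psme1 counted 9412 at 0, 8562 at 15, 8572 at 30, 8452 at 45, 9111 at 60, 8631 at 75, 8965 at 90 and 9011 at 120 min, all later libraries lying below the first, and its 120 min ratio was 0.957 (95% interval 0.932 to 0.983). Psme2 counted 10558 at 0, 9245 at 15, 9426 at 30, 9073 at 45, 9609 at 60, 9526 at 75, 9644 at 90 and 9419.9 at 120 min, also highest at 0 min, with a ratio of 0.892 (95% interval 0.870 to 0.915); its row carries the accession of a retrogene copy as well, so its values are uncertain. Per length there were 0.822 reads of Psme1 for each of Psme2 at 0 min and 0.882 at 120 min, with a range of 0.822 to 0.882 over the libraries.

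Psme4, the PA200 activator of the nucleus, counted 9658 at 0, 11198 at 15, 10951 at 30, 12212 at 45, 11096 at 60, 12405 at 75, 11968 at 90 and 11685 at 120 min. All later libraries were above the first, with the 45 and 75 min libraries highest, and the linear fit did not call it (0.23 ± 0.098 SE, adjusted p = 0.0856), except without the 120 min library (0.35); with total counts its fitted change was -0.036. Psmf1, the inhibitor, counted 5058 at 0, 4673 at 15, 4608 at 30, 4419 at 45, 4495 at 60, 4706 at 75, 4849.8 at 90 and 5190.1 at 120 min and was not called (0.071 ± 0.089 SE, adjusted p = 0.542); its lowest value was at 45 min and its 120 min ratio 1.03 (95% interval 0.990 to 1.06).

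Of the 7 assembly chaperones, 1 rose and 2 fell on the scale of the median-of-ratios factors, and with total counts 0 rose and 3 fell. Of all genes tested, 23.7% rose and 23.7% fell on the first scale, and 9.89% rose and 36.7% fell with total counts. Psmd5, a chaperone of the base that binds the ATPase Psmc2 (chromosome 2, 34852087 to 34870965), fell by 0.68 ± 0.043 (SE, adjusted p = 4.97e-05) on the log2 scale. It counted 11198 at 0, 10649.8 at 15, 10252 at 30, 9366 at 45, 8929 at 60, 8498 at 75, 7891 at 90 and 7036 at 120 min, each library lower than the one before, and the 120 min ratio was 0.628 (95% interval 0.611 to 0.646). The fitted change ran from -0.94 to -0.68 over the scales and was -0.68 and -0.67 within the 4 libraries of lower and of higher Rn45s share, called in both. Psmd10, the oncoprotein gankyrin and chaperone of the ATPase Psmc4 (chromosome X, 140948425 to 140956711), rose by 0.60 ± 0.092 (SE, adjusted p = 0.00102) and counted 6083 at 0, 5468 at 15, 5951 at 30, 6213 at 45, 7247 at 60, 6852 at 75, 7757 at 90 and 8587 at 120 min, with a ratio of 1.41 (95% interval 1.37 to 1.45); it was called under 5 of the 6 scales, not with total counts. Psmg2, which pairs with Psmg1 to build the alpha ring, fell by 0.23 ± 0.066 (SE, adjusted p = 0.0187), a call lost without the 0, 15 or 120 min library (fitted changes -0.19 to -0.24), with a 120 min ratio of 0.832 (95% interval 0.795 to 0.872) and counts of 3313 at 0, 3183 at 15, 3080.5 at 30, 2906 at 45, 2889 at 60, 2873 at 75, 2973 at 90 and 2758 at 120 min. Psmg1 had a 120 min ratio of 0.879 and was not called on this scale, nor were Psmg3 (0.906), Psmg4 (1.03) and Psmd9, another chaperone of the base (0.969). Psmg4 counted 3806 at 0, 3315 at 15, 3459 at 30, 3194 at 45, 3733 at 60, 3584 at 75, 3808 at 90 and 3907 at 120 min and Psmd9 4284 at 0, 3727 at 15, 3953 at 30, 3718 at 45, 3965 at 60, 3974 at 75, 4139 at 90 and 4153 at 120 min. Per length Psmd8 had 5.54 times the reads of Psmd5 at 0 min (95% interval 5.43 to 5.66) and 14.3 times at 120 min (13.9 to 14.6), a pair set side by side after their values were seen.

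The 2 remaining members stand outside the particle of these cells. Psmb11 (chromosome 14, 54625310 to 54629556) counted 111 at 0, 178 at 15, 172 at 30, 152 at 45, 167 at 60, 179 at 75, 217 at 90 and 225 at 120 min, the first library being the lowest; the fitted change was 0.74 ± 0.21 (SE, adjusted p = 0.0200) and the 120 min ratio 2.03 (95% interval 1.64 to 2.51). The trend was called with TMM factors too, and not with total counts (0.48), without Rn45s (0.53), with the spike-in transcripts (0.62) or with the summed core (0.60). At 0.422 rpkm at 120 min it remained far below every other member with reads, its call was lost without the 0, 90 or 120 min library (fitted changes 0.51 to 0.78), and it lies beside Psmb5 on chromosome 14, 54625310 to 54629556 against 54614120 to 54617995. Psmc3ip fell by 0.42 ± 0.062 (SE, adjusted p = 8.25e-04) and counted 3068 at 0, 2945 at 15, 2940.5 at 30, 2741 at 45, 2779.8 at 60, 2542 at 75, 2518 at 90 and 2272 at 120 min, with a ratio of 0.741 (95% interval 0.705 to 0.778); its exons share bases with Mlx on the opposite strand.

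Other genes of the pathway were read as lists. Of these 29 were tested, of which 11 rose and 7 fell by the trend test. By the criteria of the study 1 (Nfe2l1) was called higher and 2 (Irf1 and Tap1) lower at 120 min. Of all genes tested, 23.7% rose and 23.7% fell, and 9.44% were called higher and 8.58% lower at 120 min. The trend calls changed with the scale, to 1 rising and 8 falling with total counts (9.89% and 36.7% of all genes tested). They were 5 and 10 without Rn45s (13.5% and 42.1%) and 2 and 4 with the spike-in transcripts (9.05% and 15.3%). With the summed core they were 6 and 6 (13.5% and 27.1%). Among those named here Nfe2l1 rose and Ddi2, Irf1 and Tap1 fell under all 6 scales. Of 10 proteasome partners, 0 rose with total counts, 1 (Adrm1) with the spike-in transcripts, 2 without Rn45s and 3 with the summed core. On the median-of-ratios scale, to which the fitted changes of the partners and shuttle factors belong, 5 partners rose and 1 fell. The rising ones included Adrm1, the ubiquitin receptor of the base (0.66 ± 0.11 SE, adjusted p = 0.00135), the associated deubiquitinase Usp14 (0.33), the thioredoxin-like Txnl1 (0.44), Akirin2, which brings proteasomes into the nucleus (0.42), and AI314180, the adaptor Ecpas (0.47). Fbxo7 had a fitted change of -0.33, and Pomp, the maturation factor of the core, stood at a 120 min ratio of 0.957 and was not called. Among 9 shuttle factors and parts of the Vcp unfoldase, 5 rose (Nploc4 0.53, Ubqln1 0.39, Rad23b 0.36, Vcp 0.33 and Ufd1l 0.28) and 2 fell, the protease Ddi2 (-0.71) and Ubqln4 (-0.19). Of these 9, 0 rose with total counts and 0 with the spike-in transcripts, and 2 did without Rn45s and 2 with the summed core.

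Among transcription factors known to act on proteasome genes, Nfe2l1 rose and Irf1 fell under all 6 scales. Nfe2l1, which raises proteasome genes when the particle is short, rose by 0.86 ± 0.099 (SE, adjusted p = 2.76e-04) and counted 7869.6 at 0, 8628 at 15, 8272 at 30, 9944 at 45, 10294 at 60, 12514 at 75, 12759 at 90 and 13269 at 120 min, its 120 min ratio being 1.69 (95% interval 1.64 to 1.73). Nfe2l2 was not called (0.089). Irf1, an interferon-responsive factor, counted 1684 at 0, 1886 at 15, 2356 at 30, 2389.8 at 45, 1388 at 60, 384 at 75, 368 at 90 and 485 at 120 min: it was higher up to 45 min and lower from 60 min on, with a ratio of 0.288 (95% interval 0.262 to 0.315) at 120 min. The peptide transporter genes Tap1 and Tap2, which alternate with Psmb9 and Psmb8 on chromosome 17 (in the order Psmb9, Tap1, Psmb8, Tap2), had fitted changes of -0.83 ± 0.12 (SE, adjusted p = 7.77e-04) and -0.20 ± 0.071 (SE, adjusted p = 0.0417), and Tap1 counted 2065 at 0, 1935 at 15, 1859 at 30, 1909 at 45, 1832 at 60, 1422 at 75, 1365 at 90 and 1182 at 120 min, the last 3 libraries being the lowest. Whether any of these factors has a part in the changes of the proteasome genes was not tested.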

How the data were processed

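RNA of 8 cultures had been depleted of ribosomal RNA and made into directional libraries read for 58 bases. Per the methods and the labels, the authors aligned the reads with Bowtie (version not given in the sources used here) to RefSeq transcripts of mm10 and counted them per gene symbol, discarding reads that matched more than 1 symbol; CASAVA 1.8.2 and DESeq 1.10.1 are named in the submitters' processing notes. The deposited values are raw counts, without normalization. Whether counting used the strand is not given in the sources used here.

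From these counts, the 2 spike-in rows (0.0208% to 0.0316% of counts per library) were left out of library sizes and tests. Counts were divided by median-of-ratios size factors, and genes with a mean normalized count under 10 were not tested. Single libraries were compared with the 0 min library by an exact negative binomial test with a dispersion fitted over the 8 libraries as 1 group (0.0287 plus 0.853 divided by the mean), following the study. Because that rests on no replicates, no p-value of it is printed. Trends over minutes were fitted with edgeR 4.0.16 in R 4.3.3 by the quasi-likelihood test, on the whole table, with Benjamini-Hochberg adjustment. A trend p-value rests on the scatter of 8 single libraries around a line, drawn toward the scatter fitted over all genes tested. DESeq2 1.42.0 was an alternative. Both tests were tested on simulated data. Ratios carry exact binomial and rpkm values exact Poisson 95% intervals, for counting error only; lengths are the unique 58-base words of the GENCODE transcripts (vM21) whose RefSeq accessions the count table lists. Coordinates are those of GRCm38.p6, the mm10 assembly.

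The members and lists were chosen with earlier results of these data known. Described in full are the 3 catalytic pairs, the activators and the inhibitor, every member called by either test, and in each class the members with the highest and lowest 120 min ratio and rpkm. Alternatives varied the scale (total counts, total counts without Rn45s, TMM factors, spike-in counts, summed core), the filter, the dispersion, the limits, the shape of the trend and the libraries that entered. Some results on single pathway genes are not reported here.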

Additional observations from a re-analysis of the deposited data

How the results depend on the processing

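Of the counts at 60 min, 1 member was higher by the fold limit alone and the count of 0 lower members did not move. At 120 min the 2 higher members became 0 with a Benjamini-Hochberg adjusted p, the edgeR dispersion, the spike-in counts, total counts or total counts without Rn45s, and 1 with TMM factors, the summed core or a log2 limit of 1; the 0 lower members became 1 (Psmd5) with the fold limit alone, TMM factors, total counts or total counts without Rn45s. The 16 rising and 5 falling members became 2 and 8 with total counts (9.89% and 36.7% of all genes tested). They became 7 and 13 without Rn45s (13.5% and 42.1%) and 3 and 2 with the spike-in counts (9.05% and 15.3%). With the summed core they became 9 and 9 (13.5% and 27.1%). They became 5 and 2 in the 0, 30, 60 and 120 min libraries alone. In the 15, 45, 75 and 90 min libraries alone they became 7 and 1. In both of these sets fewer libraries enter. The spike-in and summed core scales were chosen after seeing the data. Leaving out each library in turn gave 10 (without 120 min) to 25 (without 0 min) rising and 3 (without 0 min) to 5 falling members. For the fits on fewer than 8 libraries the shares of all genes tested are not given here. Their counts therefore do not set the members apart. DESeq2, no filter, a quadratic trend and the Rn45s share as a covariate kept both counts within 1.5 times. No paired analysis was possible because each time point has 1 library.

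Spearman's rho with time ranged from -0.857 to -0.643 for Psmb8 over Psmb5, from -0.964 to -0.750 for Psmb9 over Psmb6 and stayed at -1 for Psmb10 over Psmb7 when each library was left out; within the 4 libraries of lower or higher Rn45s share it was -0.800 and -0.800, -0.800 and -1, and -1 and -1, with too few libraries to pass a test. The median level of the 14 core subunits was 208 rpkm by the longest transcript and 241 rpkm without Rn45s in the total.

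Over all 48 members tested, fitted log2 changes above 0 went from 37 to 12 with total counts. Among the 27 genes followed under every alternative (the catalytic pairs, the activators, the inhibitor and the called members), those that turned were, with total counts, Psmb2 (-0.0029), Psmb5 (-0.13), Psmb7 (-0.026), Psmd2 (-0.022), Psmd6 (-0.013), Psme1 (-0.26), Psme4 (-0.036) and Psmf1 (-0.19). Without Rn45s they were Psmb5 (-0.075), Psme1 (-0.21) and Psmf1 (-0.14), with the summed core Psme1 (-0.12) and Psmf1 (-0.049), with the spike-in counts Psme1 (-0.10) and Psmf1 (-0.039), and with TMM factors Psme1 (-0.016). In the 0, 30, 60 and 120 min libraries alone Psme1 was at -0.025, and in the 15, 45, 75 and 90 min libraries alone Psme2 was at 0.11. Leaving out a library moved Psme1 between -0.031 and 0.097, Psme2 between -0.10 and 0.050 and Psmf1 between -0.058 and 0.19. A scale shifts all genes alike; other causes were not tested. Over these 27 genes, the alternatives other than the spike-in and summed core scales kept direction and call in 349 fits, lost the call in 79, gained one in 10 and turned in 21; those 2 scales did so in 25, 23, 2 and 4.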

Other observations

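Outside the particle, the polyubiquitin gene Ubb counted 61879 at 0, 59574 at 15, 66546 at 30, 70209.6 at 45, 66063 at 60, 57029.9 at 75, 53602 at 90 and 54926 at 120 min, highest at 45 min. AI314180, the adaptor Ecpas, counted 10265 at 0, 11190.3 at 15, 12476 at 30, 15982 at 45, 12068 at 60, 14037 at 75, 14445 at 90 and 14684 at 120 min: all later libraries were above the first, with the highest value at 45 min. Ddi2, a protease known to activate Nfe2l1, counted 4360.4 at 0, 4417 at 15, 4296 at 30, 4049 at 45, 3473 at 60, 3078 at 75, 2907 at 90 and 3029 at 120 min, with a fitted change of -0.71 ± 0.11 (SE, adjusted p = 0.00116) by edgeR, while Nfe2l1 itself had a fitted change of 0.86. Fbxo7, an F-box protein that binds the proteasome inhibitor Psmf1, counted 2505 at 0, 2353 at 15, 2385 at 30, 2446 at 45, 2368 at 60, 2079.9 at 75, 2130.4 at 90 and 1983 at 120 min, highest at 0 min and lowest at 120 min. Psma8 had 1 count in the 45 min library and 0 in each of the other 7.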
